A study of Mus musculus with 6 samples.

Results

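The RNA of wild-type (WT) osteoclasts (OCs) was described by the abundance of its transcripts as shares of each library. The 3 WT libraries of the series, numbered 3, 82 and 94, were taken out of 6 samples by their genotype label, and the Dcir-/- samples were not compared with them. All 3 came from C57BL/6J bone marrow cells grown with 20 ng/ml M-CSF, the growth factor of macrophages and their precursors, and induced with 100 ng/ml RANKL, the cytokine that drives OC formation. The labels give culture day 4 and 2 days of RANKL, whereas the methods describe 4 days with M-CSF and RANKL, and the difference could not be settled here. Per the methods the WT mice were young adults bought from a supplier, the cells were non-adherent marrow cells expanded in M-CSF into bone marrow-derived macrophages (BMMs) before RANKL was given, and poly-A RNA was sequenced with a stranded kit. Separate mice or cultures behind the libraries are stated in neither source, so each SD is the spread between 3 libraries and may be technical.

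OCs are giant multinucleated cells of the myeloid lineage that resorb bone. They form when BMMs fuse under RANKL, seal off a patch of bone with integrins and an actin ring, acidify the space beneath with a proton pump (the V-ATPase) and a chloride channel, and secrete proteases that digest the collagen. The cell does this with lysosomal machinery turned outward and with a large supply of ATP from mitochondria.

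Values are CPM, the counts of a gene after the authors' adjustment for every 1000000 counts of the mean of the 6 column totals. At this scale 1 CPM was 33.6 adjusted counts. The 3 WT column totals lay between 33155299.7 and 33931297.4 adjusted counts, a closeness that the adjustment itself sets. A long transcript yields more fragments than a short one, so CPM gives how much of a library a gene held. Levels of different genes are set against each other as CPM per kb of annotated exon. Exon length was the union of all annotated exons of a gene, so it can exceed the length of the transcript expressed and lower the level per kb.

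The OC label was checked first against Ctsk, Acp5, Nfatc1 and Mmp9, and all 4 were high in every library. Mmp9, a secreted gelatinase (chromosome 2, 164940780 to 164955850, mm10), had 7291, 7702 and 8299 CPM in libraries 3, 82 and 94 and was the first gene by CPM in each. Acp5, the tartrate-resistant acid phosphatase used to stain OCs (chromosome 9, 22126727 to 22135711), had 3750.5, 3962 and 4399 CPM. Ctsk, the cathepsin that cleaves bone collagen (chromosome 3, 95499256 to 95509362), had 2875, 2958 and 3452 CPM. Each of these secreted enzymes was lowest in library 3 and highest in library 94. Nfatc1, the transcription factor that RANKL signaling induces, had 735, 784 and 716 CPM, with 745 ± 34.9 CPM on the mean (SD, n = 3). In bulk RNA a higher share of OCs among the cells and more RNA per OC cannot be told apart.

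The windows of 300 bases around the annotated start of 5 genes are shown because they stand for the main groups described here: the secreted enzymes (Acp5 and Ctsk), the lysosome (Ctsd and Psap) and the macrophage genes (Itgam). They are RefSeq sequences of build GRCm38.p6, written 5′ to 3′ on the strand of the gene, at chr9:22135697-22135996 (minus strand), chr3:95498960-95499259 (plus strand), chr7:142387778-142388077 (minus strand), chr10:60277378-60277677 (plus strand) and chr7:128062390-128062689 (plus strand) in the order printed. Acp5 has 3 such windows and Psap 2, of which the first listed is shown. Capitals mark matches, on either strand, to CACGTG (an E-box of the kind found in lysosomal gene promoters), TGANTCA (the AP-1 site), GAGGAA (the core of the PU.1 site), GGGCGG (the GC box) or TATAAA (the TATA box).
Acp5: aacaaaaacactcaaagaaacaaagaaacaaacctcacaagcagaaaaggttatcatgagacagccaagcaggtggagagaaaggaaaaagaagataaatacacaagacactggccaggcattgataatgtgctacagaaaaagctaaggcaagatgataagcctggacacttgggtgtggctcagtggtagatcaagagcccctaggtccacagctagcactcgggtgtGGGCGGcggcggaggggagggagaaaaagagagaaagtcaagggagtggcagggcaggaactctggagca
Ctsk: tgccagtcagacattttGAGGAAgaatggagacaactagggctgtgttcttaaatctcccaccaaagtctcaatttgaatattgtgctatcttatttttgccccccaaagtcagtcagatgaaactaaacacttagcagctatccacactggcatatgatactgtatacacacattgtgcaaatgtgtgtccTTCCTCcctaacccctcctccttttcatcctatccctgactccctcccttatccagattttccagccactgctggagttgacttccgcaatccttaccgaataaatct
Ctsd: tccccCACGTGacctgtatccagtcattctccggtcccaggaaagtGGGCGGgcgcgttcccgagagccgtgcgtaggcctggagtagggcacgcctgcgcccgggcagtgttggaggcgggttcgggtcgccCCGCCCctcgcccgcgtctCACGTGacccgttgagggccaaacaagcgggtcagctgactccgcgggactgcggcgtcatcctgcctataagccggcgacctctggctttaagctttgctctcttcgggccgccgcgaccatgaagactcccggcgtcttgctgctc
Psap: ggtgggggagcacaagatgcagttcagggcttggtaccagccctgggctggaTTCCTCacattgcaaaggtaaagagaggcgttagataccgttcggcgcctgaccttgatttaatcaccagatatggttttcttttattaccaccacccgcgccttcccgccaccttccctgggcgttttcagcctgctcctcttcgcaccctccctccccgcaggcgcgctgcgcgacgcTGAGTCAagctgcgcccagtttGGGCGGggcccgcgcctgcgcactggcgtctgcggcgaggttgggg
Itgam: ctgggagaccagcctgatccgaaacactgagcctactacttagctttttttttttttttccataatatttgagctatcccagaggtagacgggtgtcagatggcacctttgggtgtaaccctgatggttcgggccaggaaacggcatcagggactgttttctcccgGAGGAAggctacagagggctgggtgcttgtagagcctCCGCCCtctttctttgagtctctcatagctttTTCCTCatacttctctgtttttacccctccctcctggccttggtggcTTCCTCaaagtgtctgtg

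The Ctsd window held CACGTG at bases 6 to 11 and again at bases 153 to 158, counted from 1 at its 5′ end. CACGTG occurred in 16 of 61 windows of the lysosome list (26.2%) and in 4 of 20 of the V-ATPase list (20%), against 1 of 47 of the resorption list (2.13%), 0 of 15 of the macrophage list, 10.7% of the windows of genes of 10 CPM or more and 7.15% of all 32851 windows. GAGGAA, which the Itgam window held at 3 places and the Ctsk window at 2, occurred in 11 of 15 macrophage windows (73.3%), against 29.8% of resorption windows, 27.4% of the windows of genes of 10 CPM or more and 28.3% of all windows. TGANTCA was found in 2 of 15 macrophage (13.3%), 5 of 47 resorption (10.6%), 7 of 69 respiratory chain (10.1%) and 5 of 61 lysosome windows (8.2%). It was found in 1 of 20 V-ATPase (5%) and 2 of 68 ribosome windows (2.94%). The shares were 4.94% of the windows of genes of 10 CPM or more and 7.81% of all windows. GGGCGG was found in 85% of V-ATPase, 65.6% of lysosome, 63.8% of resorption and 33.3% of macrophage windows, against 64.2% of the windows of genes of 10 CPM or more and 35.7% of all windows. TATAAA was found in 6.38% of resorption windows, 6.47% of the windows of genes of 10 CPM or more and 13.6% of all windows. Windows were matched by symbol for 53 lysosome, 15 V-ATPase, 30 resorption and 14 macrophage genes, and some genes had more than 1 window. A match is a run of letters and not a measured binding site, and these shares were not tested.

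The WT OC transcriptome was spread over many genes. Of 21492 genes, 67 had a mean of 1000 CPM or more and together held 12.8 ± 0.296% of the counts (SD, n = 3). The 2372 genes between 100 and 1000 CPM, 11% of the genes, held 55.4 ± 0.232%. The 7286 genes between 10 and 100 CPM held 29.9 ± 0.135%, the 4273 genes between 1 and 10 CPM held 1.75 ± 0.0574%, and the 7494 genes under 1 CPM held 0.189 ± 0.00919%. In all, 13998 genes reached 1 CPM on the mean, with 14053, 13964 and 13811 in libraries 3, 82 and 94. Among the genes used, which leave out the mitochondrial genome, the counts thus rested on several abundance classes and not on a few dominant genes. The 50% mark of the counts was reached with 1100 genes on the mean values, and with 1095, 1112 and 1065 genes in the single libraries. The 10 genes of highest CPM held 4.23%, 3.86% and 3.98% of the 3 libraries, and Mmp9 alone held 0.722%, 0.78% and 0.828%. Protein-coding genes took 96.3 ± 0.139% of the counts. These measures of concentration lay close together in the 3 libraries.

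**Figure D1:**
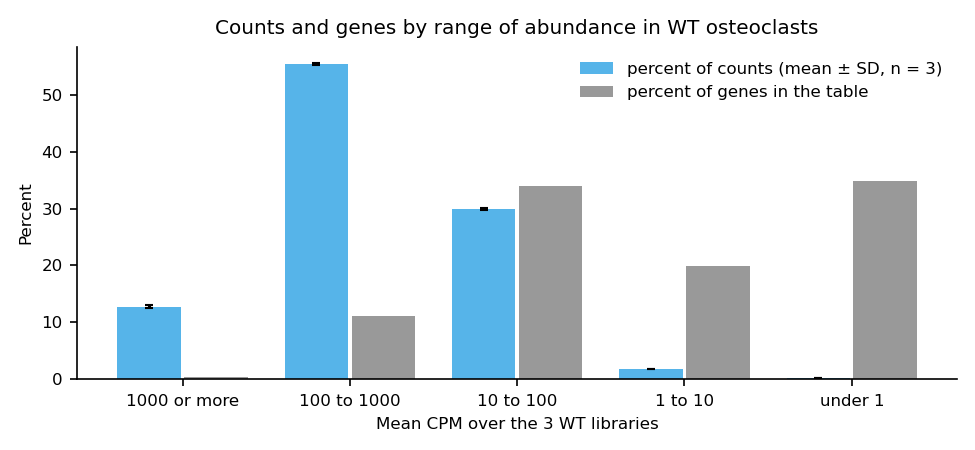
Percent of counts (blue, mean ± SD of the 3 WT libraries) and percent of genes in the table (grey) in 5 ranges of mean CPM. Genes between 100 and 1000 CPM held 55.4% of the counts, whereas the largest group of genes, those under 1 CPM, held 0.189%.

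The 30 genes of highest mean CPM held 8.21 ± 0.241% of the counts. Of these, 6 belonged to the resorption list (Mmp9, Acp5, Ctsk, Atp6v1b2, Csf1r and Tcirg1) and 6 to the lysosome list (Psap, Acp5, Lyz2, Ctsd, Ctsk and Ctsb), with Acp5 and Ctsk in both. A further gene of the V-ATPase, Atp6v1a, 4 cytoskeleton genes (Vim, Actb, Lcp1 and Actg1), the elongation factors Eef1a1 and Eef2 and both ferritin genes (Ftl1 and Fth1) were also among the 30. No ribosomal protein gene was. The order of the 30 was loose: of 29 pairs of neighbours only Mmp9 and Psap had values that did not overlap, and 25 of the 30 genes were among the first 30 of every library.

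Psap, the precursor of the saposins that help lysosomal enzymes digest sphingolipids, had 5250.3, 3900.1 and 3792 CPM. Gpnmb, a transmembrane glycoprotein of OCs and macrophages, had 5123, 3457 and 3148 CPM. Lyz2, the lysozyme of macrophages, had 4678, 3089.6 and 2994 CPM. In each of these the value of library 3 stood well above those of libraries 82 and 94, and the SD was 18.8% of the mean for Psap, 27.2% for Gpnmb and 26.4% for Lyz2, against 6.52% for Mmp9.

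Eef1a1, which brings aminoacyl-tRNA to the ribosome, had 3922, 3860.1 and 4302 CPM. Vim, the intermediate filament protein vimentin, had 3352, 3332 and 3468 CPM. Eef2, the translocation factor of the ribosome, had 2926, 3024 and 2969 CPM. Vim and Eef2 were steady, with ratios of highest to lowest library of 1.04 and 1.03.

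Ctsd, an aspartic protease of the lysosome, had 3594, 2867 and 3083 CPM. Ctsb, a cysteine protease of the lysosome, had 3386, 2405 and 2280.4 CPM. Both were highest in library 3, as were Ftl1 (3129, 2540.3 and 2968 CPM) and Fth1 (2678, 2018 and 2254 CPM), which store iron. Ckb, the brain-type creatine kinase that buffers ATP, ran the other way with 1894, 2079 and 2271 CPM. Sirpa, the receptor for CD47, had 2154, 1924 and 1836 CPM.

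Atp5b, the catalytic subunit of the mitochondrial ATP synthase, had 1669, 1871 and 2038 CPM. Nrp2, a co-receptor for semaphorins and vascular growth factors, had 1856, 1988 and 1616 CPM. Slc37a2, a sugar phosphate transporter, had 1790.3, 1867 and 1677 CPM. The rest of the 30, namely Lcp1, Hspa8, Actg1, Aldoa, Hsp90ab1 and Actb, encode actin and an actin bundler, chaperones and a glycolytic enzyme, and none of them differed between libraries by more than a factor of 1.16.

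A pair of the 30 were not ordinary protein genes. CT010467.1, a ribosomal RNA gene annotated on chromosome 17, had 1295, 2205 and 4266 CPM and ranked 47, 15 and 4 in libraries 3, 82 and 94. Its ratio of highest to lowest library, 3.29, was the largest among the genes of 1000 CPM or more. Leaving it out of the total, an alternative chosen after seeing the data, changed none of the 7 list shares recomputed (resorption, V-ATPase, lysosome, ribosome, respiratory chain, cytoskeleton and glycolysis) by as much as its SD. All ribosomal RNA genes together held 0.259% of the counts, so a change of that size was not possible and the result says nothing on stability. Gm49369, with 2171, 1739 and 1835 CPM, overlaps Ctsd and Ifitm10 on the same strand, so its counts cannot be told apart from theirs.

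**Figure D2:**
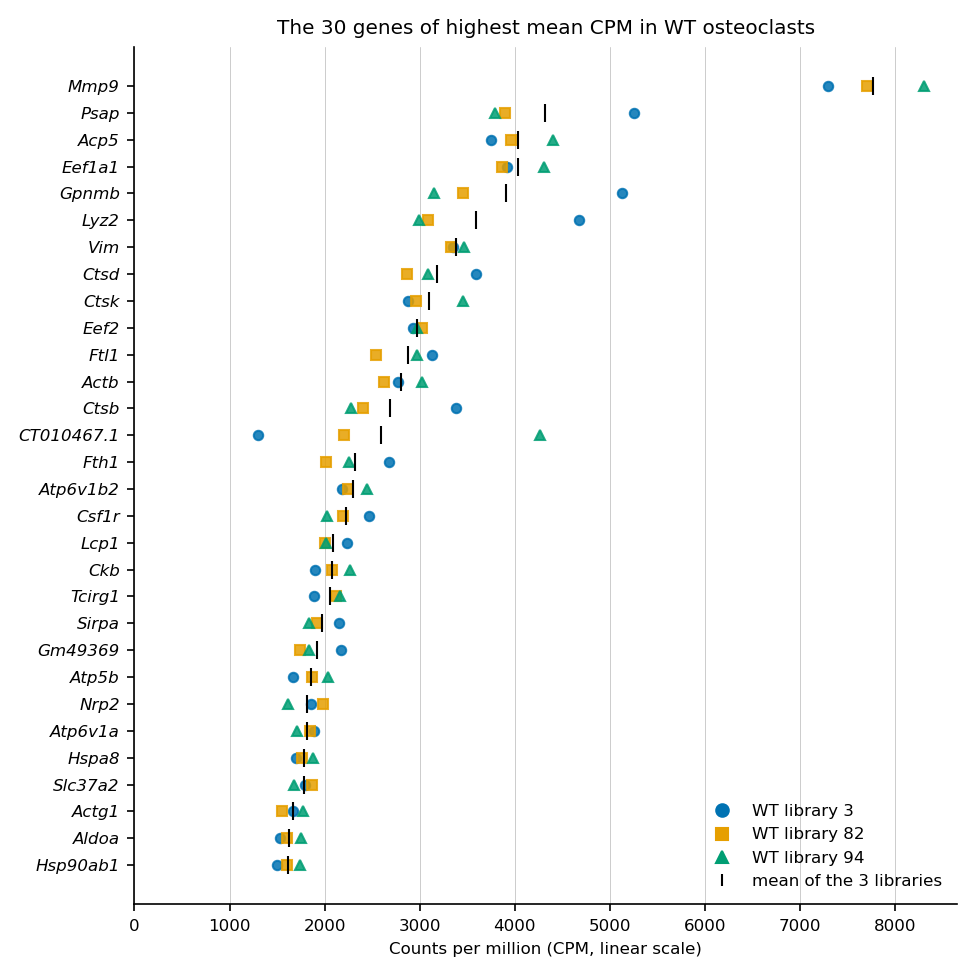
CPM of the 30 most abundant genes, with a point for each WT library and a black bar for their mean, on a linear axis that starts at 0. Mmp9 sits apart between 7291 and 8299 CPM, Psap, Gpnmb and Lyz2 are pulled up by library 3, and CT010467.1 runs between 1295 and 4266 CPM.

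Per kb of exon the order changed. Lyz2, Ftl1 and Ctsk came forward, whereas Psap, Acp5 and Ctsd fell back. Among genes with at least 200 bp of exon, Lyz2 had the highest level with 2726 CPM per kb, followed by Mmp9 (2194 CPM per kb), Ftl1 (2149 CPM per kb), Ctsk (2047 CPM per kb) and Acp5 (1989 CPM per kb). Eef1a1, Psap and Ctsd had 1616, 1572 and 1353 CPM per kb. Actb had 1047 CPM per kb, Cd68, the lysosomal membrane protein macrosialin, 1011 CPM per kb and Rplp1, a protein of the ribosomal stalk, 976 CPM per kb. Of the first 15 genes on this scale, 6 were of the lysosome list and 3 of the resorption list. Nfatc1, with a long transcript, stood at 99.8 CPM per kb.

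Some of these positions rest on annotation. Gm10252 (1631 CPM per kb) lies opposite Ftl1, Gm42674 (1058 CPM per kb) overlaps S100a3 and S100a4, and Gm49369 (1872 CPM per kb) overlaps Ctsd. The strand setting of the counting was not stated. Without the 200 bp minimum the first places went to short annotated RNAs within longer genes, such as Gm22133 inside Ftl1 with 6829.6 CPM per kb over 109 bp and Gm27597 inside Rpl19 with 3902 CPM per kb over 80 bp.

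Gene lists showed how the libraries were divided between functions. The lysosome list (68 genes) held 4.85%, 4.25% and 4.26% of the counts of libraries 3, 82 and 94, or 4.45 ± 0.346%. The resorption list (49 genes) held 3.69%, 3.87% and 3.96%, or 3.84 ± 0.138%. The ribosomal proteins (79 genes) held 2.98%, 3.23% and 3.84%, or 3.35 ± 0.445%. The lysosome share exceeded that of the ribosomal proteins in each library. Per kb of exon the means were 5.17 ± 0.522% for the lysosome and 5.64 ± 0.527% for the ribosomal proteins. On that scale the lysosome was ahead in library 3 alone. This order depends on the union of annotated exons taken as length, for example 6270 bp for Rps15a. The total per kb also includes the short annotated RNAs named above. Acp5, Clcn7, Ctsk and Ostm1 are in both the lysosome and the resorption list, and without them the lysosome list held 3.64%.

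The cytoskeleton list (38 genes) held 2.83 ± 0.0512%, the tightest share of the larger lists. Nuclear genes of the respiratory chain and ATP synthase (76 genes) held 1.6%, 1.87% and 2.12%, or 1.86 ± 0.262%. The V-ATPase (21 genes) held 1.34%, 1.42% and 1.5%, or 1.42 ± 0.0804%. Its genes Atp6v0d2, Atp6v1b2, Atp6v1c1 and Tcirg1 are also in the resorption list. Translation factors (12 genes) held 1.37 ± 0.0821% and glycolysis (18 genes) 0.847 ± 0.0679%. With each gene counted once, the 352 genes of these 8 lists held 18.5 ± 0.762% of the counts. Of the genes used here 0 lie on chromosome M, so the totals and every share leave out transcripts of the mitochondrial genome, and the mitochondrial share is that of nuclear genes alone.

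**Figure D3:**
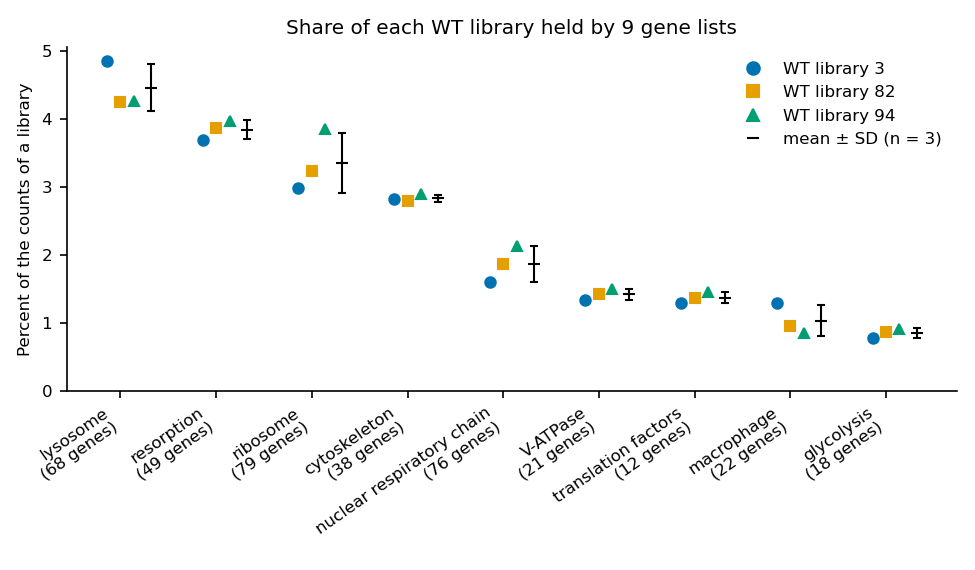
Percent of the counts of each WT library held by 9 gene lists, with the mean ± SD of the 3 libraries as a black bar. Lysosome genes held the largest share, 4.45%, and macrophage and lysosome genes were highest in library 3, whereas ribosome, respiratory chain and V-ATPase genes were highest in library 94.

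Within the resorption list, the 7 genes of collagen and matrix breakdown held 1.62 ± 0.115% of the counts. Mmp9, Acp5 and Ctsk made up most of it. Mmp14, the membrane-bound collagenase, had 824, 878 and 987 CPM, and Mmp12, the macrophage elastase, had 274, 75.5 and 89.7 CPM. Adamts4, an aggrecanase, had 7.57, 6.35 and 6.08 CPM and was the lowest gene of the list per kb, at 1.39 CPM per kb. Mmp12 was the only one of the 48 resorption genes of 10 CPM or more whose libraries lay over 2-fold apart.

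The 11 genes of acid and chloride secretion held 0.97 ± 0.0423%. Tcirg1, the a3 subunit that places the proton pump in the ruffled border, had 1889, 2123 and 2166 CPM, and Atp6v1b2, a subunit of its ATP-splitting head, 2187, 2245 and 2450.1 CPM. Atp6v0d2, the d2 subunit induced in OCs, had 1342, 1350.0 and 1394 CPM. Per kb these subunits took the first places of this group. Clcn7, the chloride/proton exchanger, had 860.1, 920.4 and 851 CPM. Car2, the carbonic anhydrase that supplies protons, had 228, 233 and 292 CPM. Among the genes of this group named here, the largest ratio of highest to lowest library was 1.28, for Car2.

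The V-ATPase has alternative a and d subunits, and the forms known from OCs were the higher ones. Tcirg1 stood at 447 CPM per kb and Atp6v0a1, the a1 subunit (169.9, 94.3 and 76.9 CPM), at 17.3 CPM per kb. Atp6v0d2 stood at 501 CPM per kb and Atp6v0d1, the widely expressed d1 subunit (226, 220.4 and 254 CPM), at 130.3 CPM per kb. Neither pair overlapped on either scale. Of 21 V-ATPase genes, 17 reached 100 CPM on the mean, against 2439 of all 21492 genes. Atp6v0e2 and Atp6v1c2 were under 1 CPM in all 3 libraries, as were 32.7% of all genes. Atp6v0a1 was the only member of 10 CPM or more with libraries over 2-fold apart.

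Attachment and fusion genes were expressed at middle levels. The integrin chains Itgav and Itgb3, which form the vitronectin receptor of the sealing zone, had 596, 577 and 551 CPM and 496, 473 and 425 CPM. Src, the kinase needed for the ruffled border, had 465, 543 and 543 CPM. The fusion proteins Ocstamp and Dcstamp had 321, 350.2 and 384 CPM and 248, 259.6 and 292 CPM. All 12 genes of attachment and fusion were at 100 CPM or more on the mean, against 2439 of all 21492 genes.

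Among receptors, Csf1r, which binds M-CSF, had 2472, 2194 and 2019.9 CPM, and Tnfrsf11a, which encodes RANK, had 254, 257 and 234 CPM. Per kb, Csf1r stood at 386 CPM per kb and Tnfrsf11a at 41.5 CPM per kb, and their libraries did not overlap. Tyrobp and Fcer1g, the ITAM adaptors DAP12 and FcRγ, had 555, 526 and 581 CPM and 288, 236 and 260.4 CPM, and Oscar, which signals through FcRγ, had 235, 250.1 and 267 CPM. Calcr, the calcitonin receptor, had 93.1, 83.6 and 78.6 CPM, and Siglec15, a DAP12-coupled lectin, 56.8, 58.3 and 37.1 CPM. Among transcription factors, Fosl2 had 1029.6, 1091 and 938 CPM, Jdp2 678, 803 and 829 CPM, and Spi1, which encodes PU.1, 611, 679 and 750.0 CPM. All 11 transcription factors of the list were at 100 CPM or more on the mean, against 2439 of all 21492 genes.

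Within the lysosome list, the cathepsins (14 genes) held 1.34 ± 0.134% of the counts and other hydrolases (32 genes) 1.66 ± 0.102%. Ctss, which also trims the invariant chain, had 1374, 768 and 791 CPM, and Ctsl 562, 361 and 395 CPM. Ctsa, the protective protein of sialidase and galactosidase, had 1181, 1160.0 and 1208 CPM, and Hexa, a subunit of hexosaminidase, 1146, 1076 and 1179 CPM. Lamp1, a protein of the lysosomal membrane, had 1169, 803 and 788 CPM. The list therefore held both steady members, such as Ctsa and Hexa, and members that were highest in library 3, such as Ctss and Lamp1. Ctsw, a cathepsin of lymphocytes, was under 1 CPM in all 3 libraries.

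The ribosomal proteins formed an even group. All 79 were at 10 CPM or more in every library, against 43.6% of all genes. Of the 79, 78 reached 100 CPM on the mean, against 2439 of all 21492 genes. Their median was 373 CPM, between 83 CPM (Rps27) and 1429 CPM (Rplp0). Rplp0, of the ribosomal stalk, had 1313, 1385 and 1588 CPM, and Rpsa 935, 1011 and 1268 CPM. Counts of ribosomal protein genes may be shared with their pseudogenes. Adding 156 such pseudogenes gave a share of 3.39 ± 0.45%.

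Of the 76 nuclear respiratory genes, all were at 10 CPM or more in every library, against 43.6% of all genes. Complex I (36 genes) held 0.448 ± 0.0721%, complexes II and III (14 genes) 0.465 ± 0.0637%, complex IV (11 genes) 0.274 ± 0.0403% and the ATP synthase (15 genes) 0.677 ± 0.0866%. Sdha, the flavoprotein of complex II, had 919, 1035 and 1047 CPM, and Cox4i1, of complex IV, 520.1, 589.6 and 704 CPM. In each of the 4 groups the share was lowest in library 3 and highest in library 94. Among glycolytic genes, Aldoa had 1529.6, 1601 and 1749.6 CPM and Pkm, the pyruvate kinase, 1384, 1433 and 1529.6 CPM.

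Many macrophage genes persisted in the WT OC cultures, in the sense of 10 CPM or more in every library, since BMMs before RANKL were not sequenced. Whether OCs or unfused BMMs in the cultures gave these counts was not tested. Of 24 macrophage markers named, 22 were among the genes used here, without Vsig4 and Timd4. Of these 22, 19 (86.4%) were at 10 CPM or more in every library, against 43.6% of all genes. Under 1 CPM in all 3 were 0, against 32.7% of all genes. The list held 1.29%, 0.946% and 0.853% of the counts. Lyz2, Csf1r and Cd68 (1266, 1247 and 1301 CPM) were the 3 above 1000 CPM. Lyz2 and Cd68 are also in the lysosome list and Csf1r in the resorption list. Itgam, the integrin CD11b, had 813, 614 and 480.4 CPM. Adgre1, the macrophage antigen F4/80, had 777, 417 and 282 CPM. In both, library 3 was highest and library 94 lowest, whereas Cd68 was nearly level. Cybb, the catalytic subunit of the phagocyte oxidase, had 646, 315 and 209.6 CPM. Mrc1, the mannose receptor, had 314, 185 and 122 CPM. These genes had the same order of libraries as Itgam and Adgre1.

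The complement genes C1qa, C1qb and C1qc had 149, 107 and 116 CPM, 475, 306 and 288 CPM, and 329.7, 215 and 198 CPM. Fcgr1, the high-affinity IgG receptor, had 26.4, 12.2 and 8.46 CPM, and Cx3cr1, the fractalkine receptor, 13.4, 20 and 10.9 CPM. The scavenger receptors Marco (3.52, 2.73 and 3.76 CPM) and Cd163 (1.61, 1.35 and 1.05 CPM) were the lowest of the list per kb, at 1.73 and 0.246 CPM per kb. On this scale Cd68 stood at 1011, Adgre1 at 152 and Fcgr1 at 6.06 CPM per kb.

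Genes of MHC class II, which present antigen, were present and uneven. Cd74, the invariant chain, had 746, 305 and 222 CPM, H2-Aa 266, 97.4 and 67.9 CPM, and Ciita, their transcriptional activator, 39.2, 16.5 and 8.71 CPM. All 7 genes of the list were highest in library 3 and lowest in library 94.

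The 14 monocyte genes had a median of 13.1 CPM, against 6.2 CPM for all genes. Chil3, a chitinase-like secreted protein, had 168, 129 and 125 CPM and Ms4a6c 189, 102 and 72.3 CPM. These were the only 2 of 14 monocyte genes at 100 CPM or more on the mean, against 2439 of all 21492 genes. Ccr2, the chemokine receptor of classical monocytes, had 28.1, 25.4 and 17.1 CPM, and Ly6c2, their surface antigen, 15.9, 11.8 and 11.4 CPM. The list held 0.0442 ± 0.0107% of the counts, against 1.03 ± 0.23% for the macrophage list. Lyz2, Csf1r and Cd68 made up most of the macrophage share.

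Granule genes of neutrophil precursors were measurable in all libraries. Ngp had 238, 194 and 245 CPM, S100a9 167, 150.2 and 182 CPM, and Ltf, lactoferrin, 148, 125 and 161 CPM. Elane, neutrophil elastase, had 10.6, 6.98 and 8.49 CPM, and Ly6g, the antigen that marks mature mouse neutrophils, was under 1 CPM in every library. Mmp8, the neutrophil collagenase, had 54.1, 25.1 and 22.7 CPM, and Csf3r, the G-CSF receptor, 46.1, 24.2 and 17.3 CPM. These 2 of the 9 neutrophil genes of 10 CPM or more lay over 2-fold apart, highest in library 3, whereas Ngp, S100a9 and Ltf were highest in library 94. The list of 16 genes summed to 0.0807 ± 0.00847% of the counts. Whether these counts came from granulocytes in the cultures or from the OCs was not tested.

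Markers of 11 cell types other than macrophages, the monocyte and neutrophil lists among them, ranged widely. Of 117 markers named, 96 were among the genes used here. Of these 96, 30 (31.2%) were under 1 CPM in all 3 libraries, against 32.7% of all genes. At 10 CPM or more in all 3 were 26 (27.1%), against 43.6% of all genes. The monocyte list gave 7 of the 26 and 0 of the 30, and the neutrophil list 9 and 1. Together the 96 markers held 0.214 ± 0.0248% of the counts. Under 1 CPM were Lck and Cd3d of T cells, Cd79a, Pax5, Ms4a1 and Ebf1 of B cells, Klrk1 and Klrb1c of NK cells, Alas2, Klf1 and Epor of erythroid cells, and Cpa3 and Mcpt8 of mast cells and basophils. Of 13 dendritic cell markers, 3 were under 1 CPM in all 3 libraries, Flt3 and Clec9a among them, and 4 were at 10 CPM or more. These 4 were Irf8 (86.7, 52.5 and 41.6 CPM), Itgax (69.3, 36 and 28.9 CPM), Clec10a (38.6, 31.4 and 24.8 CPM) and Cd24a (18, 13.6 and 15.4 CPM). Macrophages also express Irf8 and Itgax. Zbtb46, another marker of the list, had 5.28, 7.25 and 5.36 CPM. Sp7, Bglap and Tnfrsf11b, of osteoblasts, were under 1 CPM, and Col1a1 had 0.174, 1.18 and 0.362 CPM.

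Some markers of other cell types had counts in every library. Tfrc, the transferrin receptor that many growing cells carry, had 488, 482 and 546 CPM. Vwf, of platelets and endothelium, had 66.9, 45.2 and 27.5 CPM and Pf4, platelet factor 4, 30, 27.8 and 31 CPM. The lymphocyte gene Il7r had 56.9, 17.8 and 13.8 CPM, Cd5 13.8, 16.6 and 18 CPM, and Trac, a T cell receptor constant gene, 8.04, 8.37 and 8.19 CPM, while Cd3d was at 0.118, 0 and 0.0602 CPM. Ighm, the immunoglobulin mu chain, had 20.8, 17.5 and 12.7 CPM. Runx2, the osteoblast transcription factor, had 11.2, 9.89 and 10.6 CPM.

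**Figure D4:**
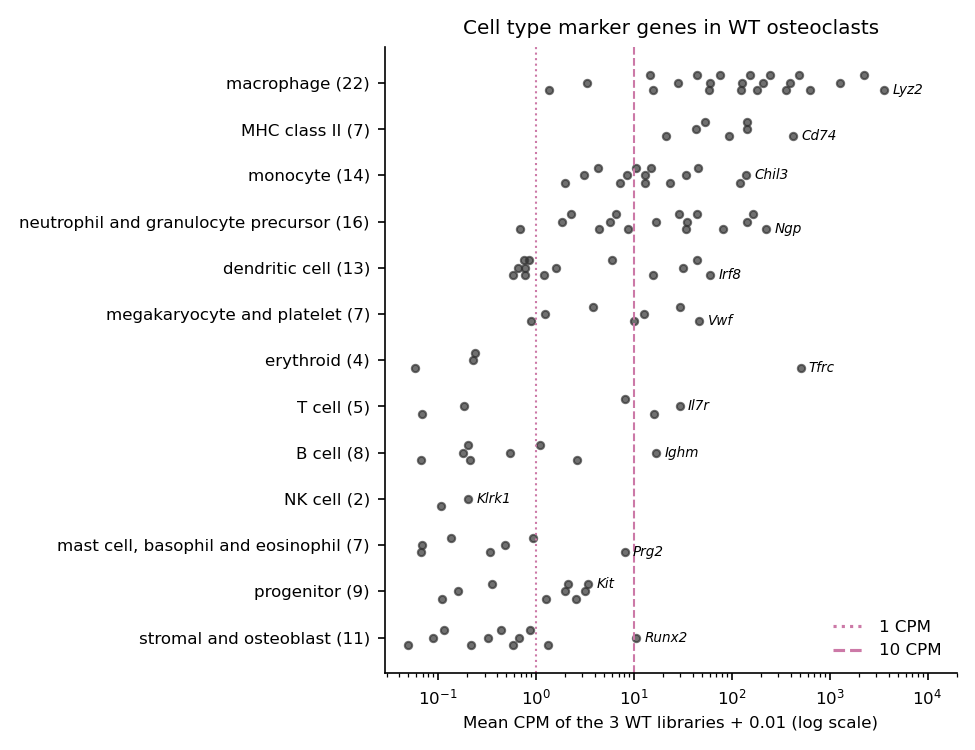
Mean CPM of each marker gene over the 3 WT libraries, plus 0.01, on a log axis, with 1 point per gene in 13 lists (number of genes in brackets, highest gene named) and lines at 1 and 10 CPM. Macrophage markers reach 3587 CPM (Lyz2), whereas both NK cell markers found (of 6 named) and most B cell markers are under 1 CPM.

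Cell cycle genes were expressed at low to middle levels. Mki67, the proliferation antigen, had 97.1, 106 and 93.5 CPM, and Pcna, the sliding clamp of DNA replication, 110.3, 103 and 126 CPM. The 10 genes of the list held 0.0454%, 0.0514% and 0.0576% of libraries 3, 82 and 94. The Y-linked genes Eif2s3y (75.2, 65.7 and 83.6 CPM) and Ddx3y (72.9, 61.5 and 59.6 CPM) were present in all 3 libraries. The labels give no sex.

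The 3 WT libraries were alike for most genes. Of 9725 genes of 10 CPM or more, 303 (3.12%) had a highest library over 2 times the lowest, and the median ratio was 1.22. Across these genes, which are not independent replicates, Pearson's r of log2(CPM + 1) was 0.983 between libraries 3 and 82, 0.96 between 3 and 94 and 0.987 between 82 and 94. Library 3 stood apart: 289 of the 303 genes were highest in it and 276 were lowest in library 94. Without library 3 the count fell to 15, and without library 94 it was 119.

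The spread was not even over gene lists. Of 20 macrophage genes of 10 CPM or more, 18 were highest in library 3, against 35.3% of all genes, and 8 (40%) lay over 2-fold apart, against 3.12% of all genes. In contrast, all 79 ribosomal protein genes and all 76 nuclear respiratory genes were highest in library 94, and 0 of either lay over 2-fold apart, while 46.3% of all genes were highest there. The median log2 ratio of library 3 over library 94 was 0.82 for macrophage genes, 1.92 for the 7 MHC class II genes and 0.21 for lysosome genes. It was -0.35 for ribosomal proteins, -0.44 for the respiratory chain and -0.20 for the V-ATPase, against -0.05 for all genes. The resorption list had a median of 0.00 (48 genes). Macrophage and MHC class II genes on one side and ribosomal and respiratory genes on the other differed in opposite directions between libraries of 1 genotype, while the resorption list was split evenly.

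**Figure D5:**
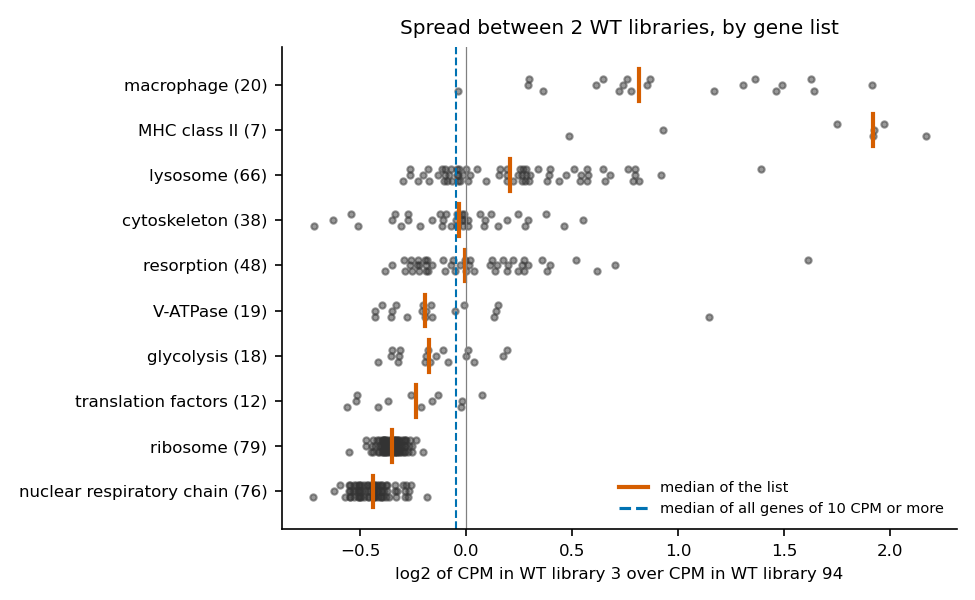
Log2 ratio of CPM in WT library 3 over CPM in WT library 94, with 1 point per gene of mean 10 CPM or more in 10 lists (number of genes in brackets), the median of each list in orange and that of all genes, -0.05, as a dashed line. Macrophage (median 0.82) and MHC class II genes (1.92) lie to the right, and every ribosome and respiratory chain gene lies left of 0.

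The 20 genes of 10 CPM or more with the widest spread included at least 9 that are known to be induced by interferon, a grouping made after their values were seen. Ifit2 had 69.2, 18 and 11.5 CPM, Oasl2 62.8, 13.4 and 11.9 CPM, and Rsad2, the antiviral protein viperin, 54.9, 16.4 and 13.4 CPM. Ifit3, Cmpk2, Mx1, Oas3, Gbp2 and Zbp1 had the same order. Thbs1, thrombospondin 1, had 148, 56.5 and 35 CPM, and Slamf7, a receptor of leukocytes, 72.9, 28.3 and 16.7 CPM. Of the 20, 19 were highest in library 3 and lowest in library 94. The exception was Tmem267, with 2.81, 22.5 and 21.7 CPM. Ccrl2, Ciita, Abca9, Il7r and Fgl2, together with the less known Slfn5os, 9930111J21Rik2 and Gm8995, made up the rest. Among the genes of 1000 CPM or more, only CT010467.1 and Mpeg1, the macrophage pore protein perforin-2, lay over 2-fold apart. Mpeg1, named after its values were seen, had 2276, 1183 and 895 CPM. Whether the cell mix, the stage of differentiation or the handling of library 3 differed was not tested.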

How the data were processed

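OC RNA-seq of 6 samples was deposited as 1 table, of which the 3 WT columns were described. Reads were trimmed with Trim Galore 0.6.6 and aligned to mm10 with HISAT2 2.2.0, per the submitters' processing notes, and per the methods were counted over exons with Rsubread and normalised with edgeR. The values the authors deposited are a signal: counts adjusted to a common library size, of which 95.8 to 99.8% are not whole. The kind of adjustment, the strand setting and the annotation release of the counting were not stated. Library 94 had 53 genes listed at 0, against 901 and 853 in libraries 3 and 82, because many of its lowest values were tiny numbers above 0, so values under 1 CPM are the least certain. A log2 fold change and an adjusted p-value (FDR) of the genotype comparison, deposited by the authors, were not used.

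CPM was the value over the mean of the 6 column totals, in Python 3.11.15 with pandas 2.3.3. Exon lengths and positions came from GENCODE M21, to which 21449 of 21492 identifiers matched. For 40 symbols on more than 1 row, the row with the highest mean entered the lists. The 27 lists (566 names, 506 found, the others not analysed here) came from textbook knowledge, and members and lists were chosen with earlier results of these data known. Named were the 30 genes of highest CPM, the 15 of highest CPM per kb, Ctsk, Acp5, Nfatc1 and Mmp9, up to 12 members of 100 CPM or more and those under 1 CPM in each list, cell type markers and the 20 most variable genes. Other members were named after their values were seen. Some genes within the rule are not reported here. Persisting meant 10 CPM or more, and near 0 under 1 CPM, in all 3 libraries. No test was run, since 1 genotype under 1 condition holds no contrast. Alternatives covered scaling, length, list membership, thresholds and each library left out. The functions behind shares and counts were tested on simulated data.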

Additional observations from a re-analysis of the deposited data

How the results depend on the processing

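In all, 78 values were recomputed over 13 results. Of these, 63 moved by at most the spread between libraries, or for counts by at most 1.5 times, and 15 moved by more. Many of the 63 were fixed in advance. Leaving out 1 of 3 libraries cannot move the mean share of a list by its SD, and scaling a library cannot change its shares. Leaving out CT010467.1 cannot move a share by its SD either, since all ribosomal RNA genes together held 0.259% of the counts. Those values therefore say nothing on stability. Dividing by exon length moved the most. The genes holding 50% of the signal fell to 572, and the share of the first 10 genes was 9.69%. No minimum of exon length was set here. Short annotated RNAs within longer genes, such as Gm22133 (109 bp), are thus among these 10 genes and in every total per length. Per length the shares were 3.47% for resorption, 1.16% for the V-ATPase, 5.17% for the lysosome, 5.64% for ribosomal proteins, 2.89% for the respiratory chain, 2.24% for the cytoskeleton and 0.652% for glycolysis, so ribosomal proteins then exceeded the lysosome on the mean. The lysosome share was 3.64% without genes of the resorption list and 4.1% without Lyz2, an alternative chosen after seeing the data. The resorption share was 1.62% for matrix breakdown alone. The genes that vary between libraries numbered 97 at a mean of 50 CPM or more, and 15 to 305 with each library left out in turn. The count of 303 therefore rests mainly on library 3. Scaling each library by its own total gave 296 such genes. The list shares cannot change with it, as they are already percents of that total. The share of mitochondrial genome genes was not run and a total without them changes nothing, since 0 of the genes used lie on chromosome M and every total leaves their transcripts out. No paired analysis was possible because only 1 group was described. With 3 libraries and adjusted values, precision is limited to the spread between libraries, and levels under 1 CPM should not be ranked.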
